A study of Mus musculus with 6 samples.

Results

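The genes described here are 10 classical targets of the peroxisome proliferator-activated receptors (PPARs) and enzymes of fatty acid oxidation, Pdk4, Angptl4, Ucp2, Cpt1a, Cpt2, Acadvl, Acadm, Hadha, Acot1 and Acot2, taken by gene symbol from a table of exon counts for 24940 genes. All 10 were in the table, and 9 of them had counts high enough to be tested. The counts come from polyadenylated RNA of primary hepatic stellate cells, the liver pericytes that store vitamin A, isolated from female wild-type C57BL/6JBomTac mice. On day 2 after isolation the cells received either 10 µM OCA (obeticholic acid), which is a bile acid derivative and agonist of the receptor FXR, or an equal volume of the solvent DMSO (1:1000). VIP (vasoactive intestinal peptide), a neuropeptide whose receptors raise cAMP, followed 3 h later at 500 nM in both groups and stayed for 3 h. The groups are called OCA+VIP and DMSO+VIP (the vehicle) and hold 3 libraries each, numbered here as the columns of the table. Because VIP was present in all 6 libraries, the comparison is of OCA with its vehicle. Whether libraries within a group stem from different mice or cultures is not said in the labels, so p-values measure the spread between these libraries, which may be technical.

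PPARs are nuclear receptors that bind fatty acids and their derivatives. They pair with a retinoid X receptor (RXR) on DNA and raise genes that take up, store, transport and oxidise fatty acids. In the liver, PPAR alpha is best known from hepatocytes, where it drives oxidation and ketone body formation during fasting, while PPAR gamma is tied to the quiescent, lipid-storing state of stellate cells. Fatty acids enter the mitochondrion as carnitine esters and are then shortened in cycles by dehydrogenases, hydratases and thiolases, and PDK4 slows the competing use of pyruvate.

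Column totals were 2839106 to 4574160.5 counts in the vehicle group and 4534359.5 to 9947968 in the OCA+VIP group, and OCA+VIP library 2 was the deepest. Of the counts above 0 and up to 30, 48.2% to 52.4% in 5 libraries and 34.2% in OCA+VIP library 2 lay within 0.5 of a multiple of 6, where an even spread gives 25%. If 6 counts stand for 1 sequenced fragment, the depth was 473184 to 1657995 fragments, so counting errors below are given in steps of 6 counts. Levels are in CPM, counts scaled to the column total. Markers of stellate cells (13 genes, none at 0 in all libraries) summed to 844 to 1086 CPM with DMSO+VIP and 1011 to 1126 CPM with OCA+VIP. These sums hide opposite changes. In the test described below, Colec11, Ecm1, Ngfr and Dcn were higher with OCA, Des and Hgf were lower, and 7 were not called. Markers of hepatocytes (18 genes) summed to 181 to 202 CPM with DMSO+VIP and 317 to 500.1 CPM with OCA+VIP. In bulk RNA, fewer cells of a type and less RNA per cell cannot be told apart.

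With OCA, Pdk4 and Angptl4 rose, Acot2 fell, and the other 6 tested genes of the set did not pass the test. The rise was 2.53-fold for Pdk4, the kinase that inhibits pyruvate dehydrogenase, and 3.25-fold for Angptl4, a secreted inhibitor of lipoprotein lipase, and Acot2, a mitochondrial thioesterase, was 1.69-fold lower. The genes of the oxidation pathway itself, Cpt1a, Cpt2, Acadvl, Acadm and Hadha, had log2 fold changes between -0.62 and 0.37. Of all 11286 genes tested, 11.8% passed the test (edgeR's quasi-likelihood test with Benjamini-Hochberg adjustment, threshold 0.05), 5.72% higher and 6.04% lower, and 3 of the 9 genes of the set did. The set was chosen with earlier results of these data known, so its share is a description and not a test. That count of 3 became 1 without DMSO+VIP library 3 or OCA+VIP library 1 or 3. In those fits the 1328 calls over all genes became 972, 737 and 751, in that order. Without DMSO+VIP library 1 they became 877. The median log2 fold change came to 0.15 over the 9 genes of the set and 0.00 over all genes tested. Without overlap between the CPM of the groups were 4 of the 9 genes (Pdk4, Angptl4 and Hadha higher, Acot2 lower), against 30.6% of all genes tested.

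**Figure D1:**
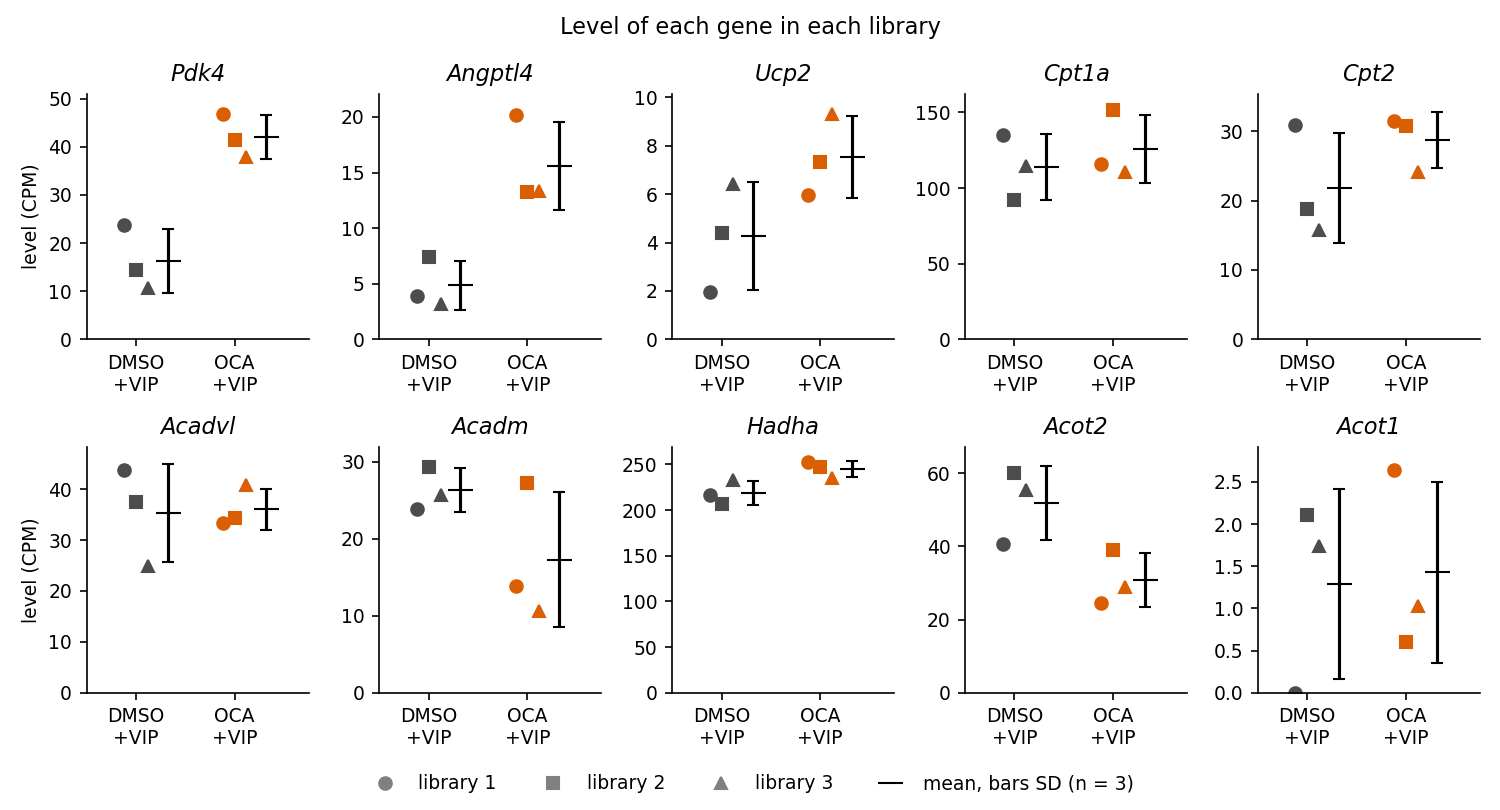
Level of each of the 10 genes (CPM, linear axes from 0) in the 3 DMSO+VIP libraries (grey) and the 3 OCA+VIP libraries (orange), with symbols for the column number and the mean with SD beside them. The OCA+VIP libraries lie above all DMSO+VIP libraries for Pdk4, Angptl4 and Hadha and below them for Acot2, and the groups overlap for the other 6 genes.

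**Figure D2:**
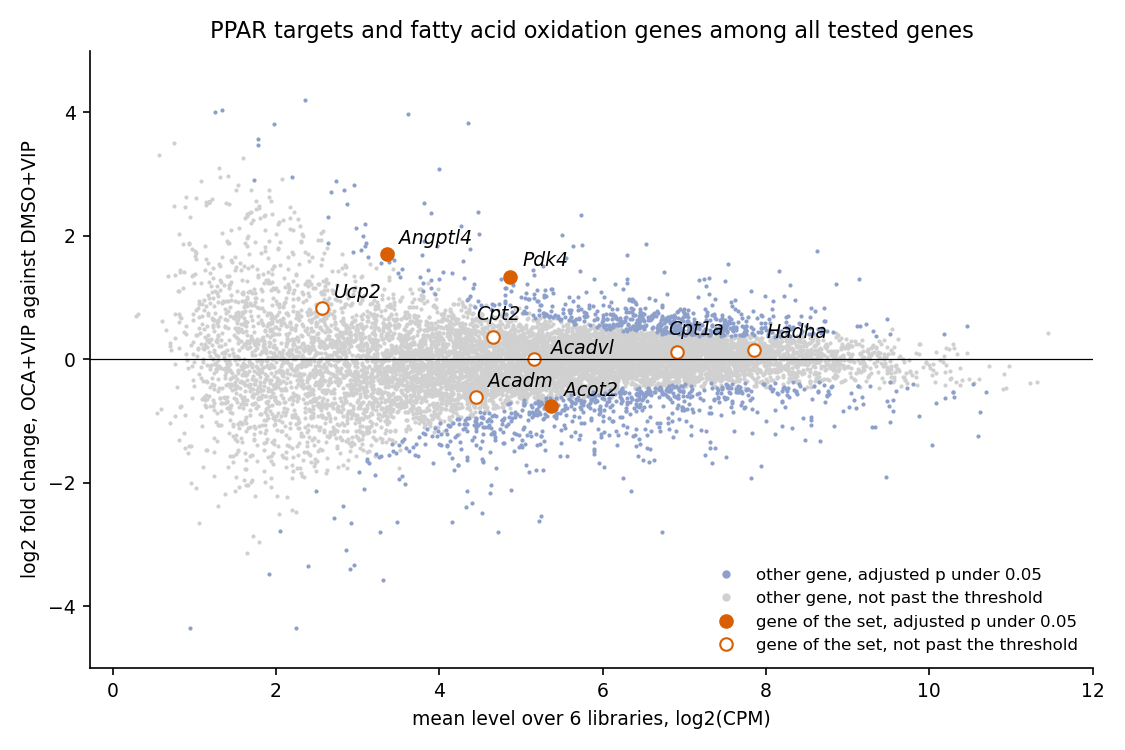
Log2 fold change of OCA+VIP against DMSO+VIP (vertical axis) against the mean level over 6 libraries (horizontal axis, log2 of CPM) for the tested genes, with the set in orange and filled where adjusted p was under 0.05. The 9 other genes beyond 5 on the vertical axis are not shown. Pdk4 and Angptl4 lie above the bulk of genes of like level, Acot2 lies below it, and Cpt1a and Hadha are the most abundant of the set and lie near 0.

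Pdk4 encodes pyruvate dehydrogenase kinase 4, which shuts the entry of pyruvate into the citric acid cycle when fatty acids are burned, and its gene is known to respond to PPARs, FOXO factors and FXR in other cells. It lies on chromosome 6 (mm10, 5483351 to 5496278, minus strand). Its level was 23.7, 14.4 and 10.7 CPM in DMSO+VIP libraries 1 to 3 and 46.8, 41.4 and 37.8 CPM in OCA+VIP libraries 1 to 3. The 3 OCA+VIP libraries were all higher than the highest vehicle library, which was library 1. The group means were 16.3 ± 6.70 and 42.0 ± 4.50 CPM (SD, n = 3), and the log2 fold change came to 1.34 (SE 0.27, edgeR's adjusted p = 0.0020). In steps of 6 counts the groups held 32 and 141, which gives a ratio of 2.45 with a 95% interval of 1.64 to 3.67 for counting error alone. Pdk4 stayed past the threshold in each of the 15 alternative fits, with edgeR, DESeq2 or limma-voom adjusted p from 2.2e-05 to 0.023.

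The other kinases of the pyruvate dehydrogenase complex were scarce. Pdk1 had 0 counts in all 6 libraries, which allows up to 18 counts, or 3 steps of 6, in a group. Pdk2 had 6.52 ± 0.167 CPM with vehicle and 5.10 ± 1.60 CPM with OCA, and Pdk3 had 4.84 ± 3.14 and 6.22 ± 1.67 CPM (n = 3 each). Neither passed the test (edgeR's adjusted p = 0.78 for both). Per kilobase of transcript, Pdk4 made up 61.1%, 37.2% and 40.7% of the summed Pdk RNA in the DMSO+VIP libraries and 72.1%, 69.1% and 66.4% in the OCA+VIP libraries. That share was higher in all 3 OCA+VIP libraries.

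Of 13 tested genes of pyruvate entry, 2 rose, 1 fell and 10 missed the threshold, where 11.8% of all genes tested were called. Their median log2 fold change came to 0.15. Mpc1, a subunit of the mitochondrial pyruvate carrier, rose from 22.7 ± 1.70 to 45.2 ± 6.22 CPM (a log2 change of 0.97, SE 0.22, edgeR's adjusted p = 0.0057). Pdhx, which tethers a component of the complex, rose from 49.6 ± 1.85 to 72.2 ± 6.24 CPM (0.52, SE 0.16, edgeR's adjusted p = 0.041). Pdha1, the catalytic subunit that PDK4 phosphorylates, fell from 315 ± 25.6 to 228 ± 20.9 CPM (a log2 change of -0.48, SE 0.12, edgeR's adjusted p = 0.0086). The call of Pdhx was lost without any 1 of 5 libraries (edgeR's adjusted p from 0.088 to 0.18 without DMSO+VIP library 1, 2 or 3 or OCA+VIP library 1 or 3), and that of Pdha1 without DMSO+VIP library 1 (0.053).

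The promoters of Pdk4 and Acot2, which changed, and of Cpt1a, which did not pass the test, are shown from 250 bases before to 50 after the start of transcription (RefSeq, GRCm38.p6, the build of the table's coordinates). Capitals mark the nuclear receptor core motif AGGTCA on either strand. The Pdk4 window lies at chr6:5496229-5496528 on the minus strand, the Acot2 window at chr12:83987611-83987910 and the Cpt1a window at chr19:3323051-3323350, both on the plus strand.
Pdk4: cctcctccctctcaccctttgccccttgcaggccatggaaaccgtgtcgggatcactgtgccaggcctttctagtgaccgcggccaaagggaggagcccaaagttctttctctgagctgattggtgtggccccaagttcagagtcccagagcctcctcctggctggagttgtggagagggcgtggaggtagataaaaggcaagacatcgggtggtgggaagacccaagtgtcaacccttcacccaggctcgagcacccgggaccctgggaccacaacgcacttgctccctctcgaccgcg
Acot2: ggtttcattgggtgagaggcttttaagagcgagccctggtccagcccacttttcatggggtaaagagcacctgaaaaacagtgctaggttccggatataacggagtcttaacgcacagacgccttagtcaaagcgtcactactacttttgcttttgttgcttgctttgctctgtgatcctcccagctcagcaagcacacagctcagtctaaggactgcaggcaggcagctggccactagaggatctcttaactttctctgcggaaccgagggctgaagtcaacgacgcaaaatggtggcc
Cpt1a: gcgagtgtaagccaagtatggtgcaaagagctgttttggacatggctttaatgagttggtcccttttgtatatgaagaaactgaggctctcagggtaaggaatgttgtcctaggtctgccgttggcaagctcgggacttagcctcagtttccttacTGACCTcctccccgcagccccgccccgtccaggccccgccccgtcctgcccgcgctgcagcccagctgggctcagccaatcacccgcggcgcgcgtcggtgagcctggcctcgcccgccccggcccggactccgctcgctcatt
RefSeq windows were found for 9 of the 10 genes, all but Angptl4. AGGTCA occurred in 3 of the 9, Cpt1a (at position -94, counted from the start), Acadm (-249) and Acadvl (-87), and in 16.3% of all 32851 windows. The PPAR direct repeat, AGGTCA followed after 1 base by another AGGTCA, occurred in 0 of the 9 and in 13 of all windows, the FXR inverted repeat, AGGTCA followed after 1 base by TGACCT, in 0 of the 9 and in 3 of all windows, and the cAMP response element TGACGTCA in 0 of the 9 and in 1.79% of all windows. All were searched on both strands, and the first overlaps the next pair, since each of them holds AGGTCA. Exact matches to both repeats and to the cAMP response element are so rare that 0 of the 9 says nothing about the set. Sites outside these windows or with other letters were not searched.

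Angptl4 encodes angiopoietin-like 4, which blocks lipoprotein lipase at the cell surface and is raised by fatty acids, PPARs and hypoxia in many tissues. It lies on chromosome 17 (33774900 to 33781575, minus strand). Its level was 3.94, 7.40 and 3.21 CPM in the DMSO+VIP libraries and 20.2, 13.2 and 13.4 CPM in the OCA+VIP libraries, with OCA+VIP library 1 the highest. The lowest OCA+VIP library lay above the highest vehicle library. The means were 4.85 ± 2.24 and 15.6 ± 3.98 CPM (SD, n = 3) and the log2 fold change came to 1.70 (SE 0.46, edgeR's adjusted p = 0.018).

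The call on Angptl4 rests on few reads. The 3 vehicle libraries held 18, 21 and 12 counts, about 8 steps of 6 in all, against 50 steps with OCA, a ratio of 3.24 with a counting interval of 1.62 to 8.39. The adjusted p was 0.071 and 0.067 without DMSO+VIP library 1 or 3, 0.13 and 0.052 without OCA+VIP library 1 or 3 (edgeR), and 0.057 by limma-voom. Over the 6 fits with 1 library left out, the log2 fold change stayed between 1.43 and 2.11.

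Of the 10 lists of related genes, that of lipid droplets and lipolysis held the most called genes. Of 14 tested, 2 rose, 4 fell and 8 missed the threshold, against 11.8% called over all genes tested. Their median log2 fold change came to -0.35. Hilpda, a droplet protein that inhibits the lipase ATGL and that PPARs and hypoxia induce, fell from 384 ± 26.9 to 169 ± 24.4 CPM (a log2 change of -1.20, SE 0.13, edgeR's adjusted p = 1.5e-06). Mgll, monoglyceride lipase, fell from 33.1 to 40.7 CPM in the vehicle libraries to 12.6 to 16.4 CPM in the OCA+VIP libraries (log2 fold change -1.30, SE 0.25), and Plin3, a droplet coat protein, from 114 ± 5.15 to 65.3 ± 16.3 CPM (-0.82, SE 0.16). Pnpla2, which encodes ATGL itself, and Dgat2, which makes triglyceride, rose (log2 fold changes 0.63 and 1.13), while Dgat1, an enzyme of the same reaction, fell (-0.82). These 3 genes were chosen after their values were seen, and Dgat1 was not called without DMSO+VIP library 1 or 3 or OCA+VIP library 1 (edgeR's adjusted p from 0.081 to 0.19).

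Cpt1a and Cpt2 encode the carnitine palmitoyltransferases of the outer and inner mitochondrial membrane, the first of which sets the rate of fatty acid entry. Cpt1a (chromosome 19, 3323301 to 3385733, plus strand) had 135, 92.1 and 114 CPM in the DMSO+VIP libraries and 116, 152 and 110.4 CPM in the OCA+VIP libraries. The groups overlapped, with means of 114 ± 21.6 and 126 ± 22.5 CPM (SD, n = 3), and the log2 fold change came to 0.12 (SE 0.15, edgeR's adjusted p = 0.66). Cpt2 (chromosome 4, 107903982 to 107923589, minus strand) had 30.8, 18.8 and 15.8 CPM with vehicle and 31.4, 30.7 and 24.1 CPM with OCA. Vehicle library 1 lay within the OCA+VIP range and the other two vehicle libraries below it, and the log2 fold change came to 0.37 (SE 0.27, edgeR's adjusted p = 0.43). The muscle form Cpt1b and the brain form Cpt1c had 3.85 ± 0.599 and 25.1 ± 4.06 CPM with vehicle and 5.62 ± 0.134 and 18.0 ± 3.34 CPM with OCA, and neither passed the test (edgeR's adjusted p = 0.65 and 0.27). Per kilobase, Cpt1a made up 71.5% ± 6.66 of the Cpt1 RNA with vehicle and 77.6% ± 3.10 with OCA (SD, n = 3), with overlap between the groups.

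Malonyl-CoA blocks CPT1, and AMP-activated kinase lowers malonyl-CoA. Among all genes tested 11.8% were called, and of 10 tested genes of this control 1 rose, 0 fell and 9 missed the threshold. In edgeR, 1 of the 10 was lower at an unadjusted p under 0.05, and DESeq2 and limma-voom called 0 lower. Prkab1, a regulatory subunit of the kinase, was the one that rose, from 86.0 ± 12.8 to 136 ± 2.10 CPM (a log2 change of 0.65, SE 0.14, edgeR's adjusted p = 0.0032), and it was called in each of the 15 alternative fits. Of 11 tested genes of fatty acid uptake, binding and activation, 0 were called by edgeR or DESeq2. At an unadjusted p under 0.05, 0 were higher and 2 lower, and limma-voom called 1 lower. With other filters on low counts edgeR called 1 of 14 (1 CPM in 3 samples) and 2 of 17 (no filter) of these genes, 1 of them higher in each case.

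The dehydrogenases of the first step were led by Acadl. Acadl, the long-chain form, had 152 ± 7.82 CPM with vehicle and 168 ± 16.9 CPM with OCA (log2 fold change 0.13, edgeR's adjusted p = 0.55). Acadvl, the very-long-chain acyl-CoA dehydrogenase (chromosome 11, 70010183 to 70015428, minus strand), had 43.8, 37.5 and 24.9 CPM in the vehicle libraries and 33.3, 34.3 and 40.7 CPM in the OCA+VIP libraries. The groups overlapped, and the log2 fold change came to 0.01 (SE 0.23, edgeR's adjusted p = 0.98), a sign that turned under 4 of 15 alternatives, upper-quartile scaling among them. On the opposite strand, Dvl2 shares 45.0% of the exon bases of Acadvl in GENCODE, and the sources used here do not state whether counting used strand. Dvl2 rose from 202 ± 6.25 to 289.7 ± 12.7 CPM (log2 fold change 0.51, edgeR's adjusted p = 0.0070), and its part in the counts of Acadvl was not tested.

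Acadm, the medium-chain form (chromosome 3, 153922353 to 153944643, minus strand), had 23.8, 29.4 and 25.7 CPM with vehicle and 13.9, 27.3 and 10.7 CPM with OCA. OCA+VIP library 2 lay among the vehicle libraries and the other two OCA+VIP libraries lay below them. The log2 fold change came to -0.62 (SE 0.31, edgeR's adjusted p = 0.21), and without OCA+VIP library 2 it was -1.08 (edgeR's adjusted p = 0.038). The short-chain form Acads had 10.6, 3.17 and 22.2 CPM with vehicle and 6.06, 7.74 and 7.84 CPM with OCA, and did not pass the test (edgeR's adjusted p = 0.40).

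Hadha encodes the alpha subunit of the trifunctional protein, which carries out the later steps on long chains, and it was the most abundant gene of the set. It lies on chromosome 5 (30118304 to 30154980, minus strand), and Hadhb, the gene of the beta subunit, starts 272 bases away on the plus strand. Hadha had 217, 206 and 233 CPM in the vehicle libraries and 253, 247 and 235 CPM in the OCA+VIP libraries. The groups did not overlap, but the gap between DMSO+VIP library 3 and OCA+VIP library 3 was small, and the log2 fold change of 0.15 (SE 0.12) did not pass the test (edgeR's adjusted p = 0.46). Hadhb had 25.2 ± 8.12 and 30.8 ± 2.65 CPM (edgeR's adjusted p = 0.55). Per kilobase, Hadha made up 82.6% ± 3.74 of the RNA of the pair with vehicle and 81.1% ± 1.86 with OCA.

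Of 23 tested genes in the rest of mitochondrial beta-oxidation, 2 fell, 0 rose and 21 missed the threshold. Over all genes tested, 6.04% fell and 5.72% rose. In edgeR, 1 of the 23 was higher at an unadjusted p under 0.05, and DESeq2 and limma-voom called 0 higher. Their median log2 fold change came to -0.07. Decr1, the dienoyl-CoA reductase that unsaturated fatty acids need, fell from 52.3 ± 3.80 to 27.7 ± 10.5 CPM (-0.93, SE 0.23, edgeR's adjusted p = 0.0099). Acaa2, the thiolase of the last step, fell from 35.6 ± 4.75 to 21.8 ± 1.26 CPM (-0.72, SE 0.23, edgeR's adjusted p = 0.048). The call of Acaa2 was lost without any 1 of the 6 libraries (edgeR's adjusted p from 0.055 to 0.16), and that of Decr1 without OCA+VIP library 1 (0.060). Of 17 tested peroxisomal genes, 0 were called by edgeR, DESeq2 or limma-voom, and 1 was higher and 3 lower at an unadjusted p under 0.05 (edgeR). The peroxisomal median was -0.38.

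Acot1 and Acot2 encode the cytosolic and the mitochondrial acyl-CoA thioesterase of a gene cluster on chromosome 12, and both release free fatty acids from coenzyme A. Acot2 (83987861 to 83993875, plus strand) had 40.6, 60.1 and 55.3 CPM in the vehicle libraries and 24.6, 39.0 and 28.9 CPM in the OCA+VIP libraries. The groups did not overlap, but OCA+VIP library 2 came close to DMSO+VIP library 1. The means were 52.0 ± 10.2 and 30.8 ± 7.39 CPM (SD, n = 3), and the log2 fold change came to -0.76 (SE 0.21, edgeR's adjusted p = 0.023). The call was lost without DMSO+VIP library 2 or 3 (edgeR's adjusted p = 0.10 and 0.080) and without OCA+VIP library 1 or 3 (0.11 and 0.097).

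Acot1 (84009502 to 84017669, plus strand) lies 15626 bases beyond Acot2 and was too low to test. It had 0, 6 and 6.5 counts in the vehicle libraries and 12, 6 and 6 counts in the OCA+VIP libraries. The vehicle total of 12.5 counts is under the floor of 18 counts, so no fold is given. Over 1330 aligned bases the transcripts of Acot1 and Acot2 were 94.3% identical (GENCODE), and 24.5% of the 50-base stretches of Acot2 also occurred in Acot1. The longest run that both share, 273 bases, all of it coding sequence in exon 3, is shown because reads from it cannot be assigned to either gene. It lies at chr12:83992728-83993000 in Acot2 and chr12:84017006-84017278 in Acot1, both on the plus strand.
Acot1 and Acot2: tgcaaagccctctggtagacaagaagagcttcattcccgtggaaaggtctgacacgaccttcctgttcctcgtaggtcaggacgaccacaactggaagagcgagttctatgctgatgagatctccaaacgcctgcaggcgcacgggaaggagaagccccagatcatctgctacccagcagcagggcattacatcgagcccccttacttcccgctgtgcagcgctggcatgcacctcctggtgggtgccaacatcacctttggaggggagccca
How the counting treated such reads is not given in the sources used here, so the split between both genes is uncertain. Of the neighbouring thioesterase genes, Acot3 had 0 counts in all libraries, and Acot4 had 6, 9 and 0 counts with vehicle and 0, 22.5 and 3 with OCA. Of 7 tested genes of other thioesterases, Acot13 fell (66.9 ± 7.04 to 42.5 ± 1.92 CPM, log2 fold change -0.67, edgeR's adjusted p = 0.013), 0 rose and 6 missed the threshold (1 was higher at an unadjusted p under 0.05, and DESeq2 and limma-voom called 0 higher). Over all genes tested, 11.8% were called. Acot13 was not called without DMSO+VIP library 2 or 3 or OCA+VIP library 3 (edgeR's adjusted p from 0.050 to 0.058).

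Ucp2, an inner-membrane carrier that PPARs raise in several tissues, lies on chromosome 7 (100493358 to 100499629, plus strand). It had 1.97, 4.40 and 6.43 CPM in the vehicle libraries and 5.95, 7.34 and 9.30 CPM in the OCA+VIP libraries. DMSO+VIP library 3 lay above OCA+VIP library 1, so the groups overlapped. The log2 fold change came to 0.83 (SE 0.63, edgeR's adjusted p = 0.44), and with 8 and 26 steps of 6 counts the ratio of 1.86 has a counting interval of 0.785 to 4.56. That interval holds both no change and the ratio seen for Pdk4. Ucp3 had 0 counts in all libraries and Ucp1 had 16, 0 and 0 counts with vehicle and 0, 6 and 18 with OCA. Of 6 tested genes of the other uncoupling proteins and ketone body metabolism, 0 were called by edgeR, DESeq2 or limma-voom, and 1 was higher and 1 lower at an unadjusted p under 0.05 (edgeR). Over all genes tested, edgeR called 11.8%, and 6 genes are too few to tell 0 calls from that share.

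**Figure D3:**
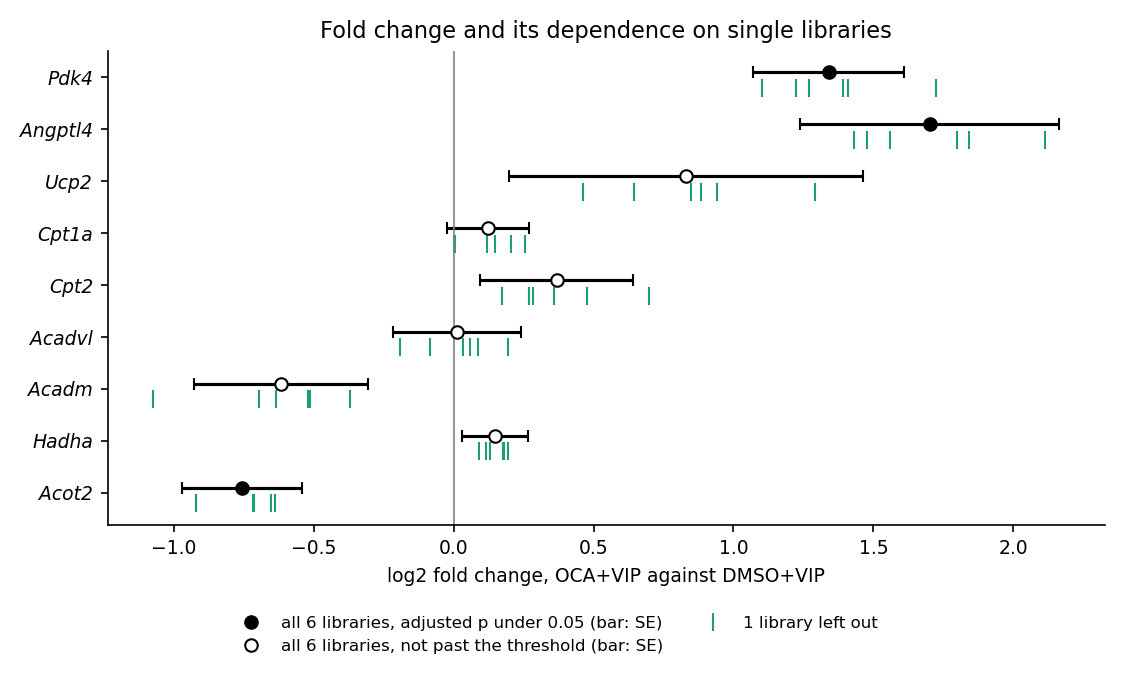
Log2 fold change of the 9 tested genes with all 6 libraries (circles, bars SE, filled where edgeR's adjusted p was under 0.05) and with 1 library left out (green ticks, 6 fits per gene). All ticks of Pdk4, Angptl4 and Ucp2 lie above 0 and all ticks of Acot2 and Acadm below it, and those of Acadvl lie on both sides.

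Of the 3 PPAR genes, Ppard alone had enough counts to be tested. It had 285 ± 22.7 CPM with vehicle and 219 ± 31.4 CPM with OCA (SD, n = 3), without overlap between the groups (log2 fold change -0.39, SE 0.12, edgeR's adjusted p = 0.038). The call was lost without DMSO+VIP library 2 or 3 or OCA+VIP library 1 or 3 (edgeR's adjusted p from 0.12 to 0.18). Ppara had 12.5, 0 and 6 counts in the vehicle libraries and 0, 53.5 and 0 in the OCA+VIP libraries, so its counts with OCA came from library 2 alone. Pparg had 7 counts in OCA+VIP library 1 and 0 in the other libraries. Neither was tested.

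Of 14 tested receptors, partners and coregulators, 1 rose, 2 fell and 11 missed the threshold, against 11.8% called over all genes tested. Foxo3, a FOXO factor that is known to raise Pdk4 in muscle, rose from 96.2 ± 10.2 to 141 ± 5.76 CPM (0.53, SE 0.13, edgeR's adjusted p = 0.011). Foxo3 was not called when DMSO+VIP library 2 (edgeR's adjusted p = 0.055) or, separately, OCA+VIP library 1 (0.067) was left out.

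Of 30 other PPAR target genes listed, 15 were tested, 1 rose, 0 fell and 14 missed the threshold (edgeR; 3 were lower at an unadjusted p under 0.05, and DESeq2 and limma-voom each called 1 lower), with a median log2 fold change of 0.15. Txnip, an inhibitor of glucose uptake, rose from 219 ± 28.3 to 307 ± 16.7 CPM (0.48, SE 0.13, edgeR's adjusted p = 0.015), and was not called without DMSO+VIP library 2 or 3 or OCA+VIP library 1 (edgeR's adjusted p from 0.063 to 0.097). Plin2, a droplet coat protein and PPAR target, had 668 ± 20.6 and 529.9 ± 33.7 CPM (-0.35, edgeR's adjusted p = 0.072). Plin2 was called lower under 4 of 15 alternatives (upper-quartile or library-size scaling, DESeq2 and limma-voom), and it was chosen after its values were seen. Over all 114 tested genes of the 10 lists other than the set itself, 7 rose and 10 fell, 14.9% of them, against 11.8% of all genes. Without OCA+VIP library 1 the 17 called genes became 10. The lists, like the set, were chosen with earlier results of these data known.

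**Figure D4:**
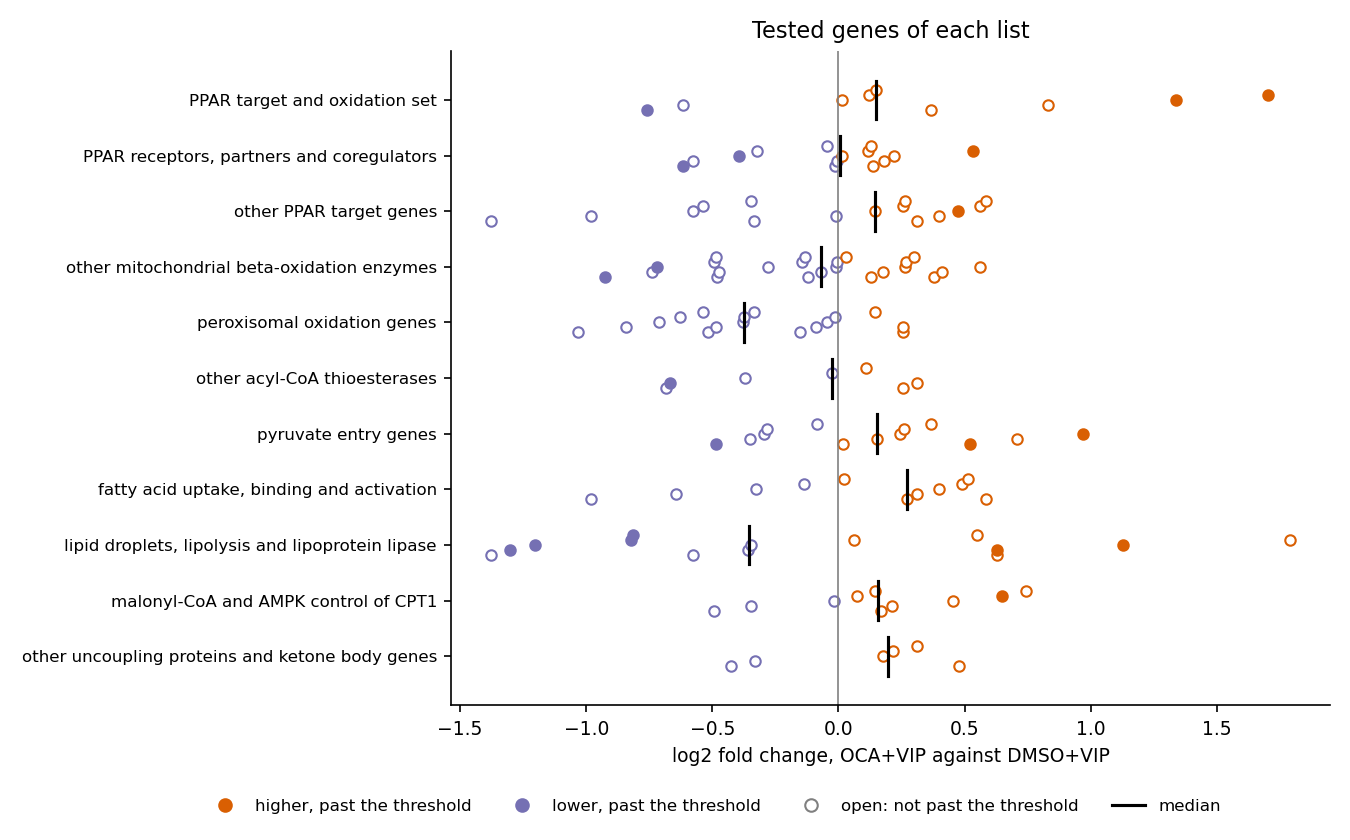
Log2 fold change of every tested gene in the set of 9 and in 10 lists of related genes, filled where edgeR's adjusted p was under 0.05 and with a bar at each median. Called genes lie on both sides of 0 among receptors, pyruvate entry and lipid droplet genes, and no peroxisomal, uptake or uncoupling and ketone body gene is filled.

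The summed level of hepatocyte markers, given above, was higher in each OCA+VIP library, as were Pdk4 and Angptl4. Of 14 tested markers, 9 rose and Ass1, argininosuccinate synthase, fell. Ass1 alone held 110 ± 9.94 CPM of a mean sum of 191 CPM with vehicle, and 64.4 ± 10.2 CPM of 419 CPM with OCA (SD, n = 3). Alb, serum albumin, went from 39.5 ± 2.35 to 146 ± 35.7 CPM, while Cps1 and Tat, defining hepatocyte enzymes, were at 0 in all 6 libraries. Alb and Ass1 are named after their values were seen. The part of hepatocyte RNA in the rise of Pdk4 and Angptl4 was not tested. Adipocyte markers, measured because fat cells make Angptl4, summed to 12.6 to 13.9 CPM with DMSO+VIP and 17.3 to 20.6 CPM with OCA+VIP. Most of it came from Lipe, the only 1 tested (9.67 ± 1.85 and 15.2 ± 3.87 CPM, edgeR's adjusted p = 0.31). Adipoq went the other way, with 12, 6 and 6 counts in the vehicle libraries and 6, 0 and 0 in the OCA+VIP libraries. Lep was at 0 in all libraries. Macrophage markers summed to 15.3 to 47.3 and 31.0 to 44.2 CPM, endothelial markers to 5.76 to 11.6 and 14.7 to 22.9 CPM, cholangiocyte markers to 6.16 to 14.9 and 17.3 to 21.0 CPM, and lymphocyte markers to 0 to 1.31 and 5.88 to 10.9 CPM. Among the defining markers at 0 in all libraries were Ptprc and C1qa of macrophages, Lyve1 of endothelium, Krt7 of cholangiocytes and Cd3e of lymphocytes. Other markers of these lists were detected. Cd79a of lymphocytes had 0 counts with vehicle and 27.5, 36.5 and 48.5 with OCA (edgeR's adjusted p = 0.0025). Pecam1 of endothelium had 6, 6 and 0 counts with vehicle and 18.5, 42 and 25.5 with OCA (0.24). Cd68 of macrophages had 20.5 ± 5.61 and 30.6 ± 5.92 CPM, and Krt19 of cholangiocytes 6.71 ± 5.79 and 12.2 ± 2.07 CPM. Neither passed the test.

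Compared per kilobase of transcript, the order of levels in the vehicle group ran from Hadha (57.3 ± 3.53 CPM per kilobase) through Cpt1a (26.6 ± 5.05), Acot2 (23.7 ± 4.64), Acadvl (16.4 ± 4.45), Acadm (12.9 ± 1.39), Cpt2 (9.31 ± 3.39), Pdk4 (4.74 ± 1.95), Ucp2 (2.72 ± 1.43) and Angptl4 (2.56 ± 1.18) to Acot1 (0.827 ± 0.726). Each neighbour in that order overlapped the next over the libraries, except Hadha with Cpt1a and Angptl4 with Acot1. In the OCA+VIP group Pdk4 stood sixth with 12.2 ± 1.31 CPM per kilobase, beside Cpt2 at 12.3 ± 1.72, and Angptl4 stood eighth with 8.23 ± 2.10, beside Acadm at 8.44 ± 4.30. Acot2 stood behind Acadvl there, at 14.1 ± 3.37 and 16.7 ± 1.87 CPM per kilobase, and their ranges overlapped.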

How the data were processed

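Polyadenylated RNA of 6 samples was sequenced from NEBNext Ultra libraries, per the labels' protocols. The authors deposited 1 table of exon counts per gene. These deposited values are expected counts in steps of 0.5, not adjusted for library size. The submitters' processing notes name mm10, STAR, HOMER and DESeq2, with no role or version. Strand use and duplicate removal are not given in the sources used here. Columns were assigned to groups by name, and which column is which lettered replicate of the titles was not resolved.

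Counts were rounded and tested with edgeR 4.0.16 (limma 3.58.1, R 4.3.3): TMM, filterByExpr (minimum count 10, total 15), a two-sided quasi-likelihood F test, p adjusted by Benjamini-Hochberg over every tested gene, threshold 0.05. SE is the log2 fold change divided by the root of F. Interval bounds are exact binomial (95%), on counts divided by 6. Tested on simulated data of this comparison (11135 genes), the fit recovered 58% of changes of 2-fold and 99% of those of 4-fold, with 5 false calls. The simulation gave all genes a common dispersion and did not copy the steps of 6 counts, so these rates may not hold for the real counts. Alternatives were 3 scalings (RLE, upper quartile, library size), other filters, DESeq2 1.42.0, limma-voom, a replicate block, other thresholds and left-out libraries. Counts divided by 6 were added after the data were seen.

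The 10 genes and the lists were chosen with earlier results of these data known. Named genes are the 10, up to 3 called genes of smallest p per list at 1 CPM or more on average, the PPAR genes and the closest paralogs or partners (38 genes), and 4 of the lists chosen after their values were seen. Markers, overlapping genes and the genes of the closing section on other observations come on top of these. Some genes the rule names are not reported here. Promoters are from RefSeq, and transcripts and exon overlaps from GENCODE M21, using the transcript closest in length to that of the table.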

Additional observations from a re-analysis of the deposited data

How the results depend on the processing

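Pdk4 stayed past the threshold under all 15 alternatives, and its log2 fold change came to 1.10 to 1.72 with 1 library left out. Angptl4 kept its direction under all 15 (1.43 to 2.11 with 1 library left out) but was not called in 4 of those 6 fits, nor by limma-voom (1.69). Acot2 also kept its direction (-0.92 to -0.64) and was not called in 4 of the 6. Acadm ranged from -1.08 to -0.37 with 1 library left out and was called without OCA+VIP library 2. The sign of Acadvl turned under upper-quartile scaling (-0.026) and with counts divided by 6 (-0.046), and ranged from -0.19 to 0.19 with 1 library left out, and that of Acads ranged from -1.17 to 0.045 in those fits. Cpt1a, Cpt2, Hadha and Ucp2 kept their direction and stayed short of the threshold throughout. Of the set, 1 gene was called at a threshold of 0.01, and 1 to 4 with 1 library left out. Over all genes, 648 were called at 0.01 and 737 to 1478 with 1 library left out, against 1328. Of the other genes of the lists, 10 were called at 0.01 and 10 to 20 with 1 library left out, against 17. With no filter, Acot1 did not pass the test (edgeR's adjusted p = 0.96).

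Libraries of the same column number did not deviate together (correlations of -0.035, -0.050 and 0.030 across genes), and not every library correlated best with its own number. A replicate block by column number called 1118 genes and 13 of the other list genes, against 17. It called Pdk4, Angptl4 and Acot2, but not Ppard (edgeR's adjusted p = 0.073), Acaa2 (0.071), Pdhx (0.059) or Dgat1 (0.052). Depth limits the scarcest genes of the set, Angptl4, Ucp2 and Acot1.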

Other observations

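Several fatty acid genes best known from hepatocytes had no counts in any vehicle library and a few with OCA. Fabp1, the liver fatty acid binding protein, had 15, 9 and 12 counts in OCA+VIP libraries 1 to 3. Slc27a5, the bile acid and fatty acid ligase of liver, had 6, 32.5 and 18 counts. Cyp4a14, an omega-hydroxylase and strong PPAR alpha target, had 12, 6.5 and 12 counts, and Acaa1b, a peroxisomal thiolase, had 6 counts in each. Slc27a2, a very-long-chain ligase, had 21, 0 and 12 counts. All 5 were at 0 in the 3 DMSO+VIP libraries, where the floor is 18 counts over the group. None passed the main filter on low counts, so no fold is given. These are raw counts, and the OCA+VIP group as a whole was sequenced more deeply. At the depth of the vehicle group 18 counts stand for 1.61 CPM, but for 0.887 CPM at that of the OCA+VIP group. The 5 genes were also chosen after their values were seen. How much of the pattern comes from depth and from this choice was not tested. Other members of the same lists that hepatocytes also make stayed at 0 in all 6 libraries, among them Vldlr and Fgf21.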
